A study of Rattus norvegicus with 6 samples.

Results

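The D cyclins, the kinases they switch on and the proteins that block those kinases were examined in cultured oligodendrocyte progenitors of the rat (OPCs), which divide and later become the myelin-forming cells of the brain. The 10 genes were taken by name: Ccnd1, Ccnd2, Ccnd3, Cdk4, Cdk6, Cdkn1a, Cdkn1b, Cdkn1c, Cdkn2b and Cdkn2c. 9 of them had a probe set with values, out of 13949 genes measured, and Ccnd3 was not analysed here. Each of the 9 had 1 probe set with a single gene symbol.

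The study compared 3 arrays from unstimulated OPCs with 3 from OPCs that had received fibrinogen, the clotting protein of blood plasma, for 12 h. Both groups were primary cells of newborn pups that recovered for 2 days in the same proliferation medium, DMEM with N2, B27, penicillin and streptomycin, NT3 and PDGF. The controls therefore also received PDGF and NT3, which drive OPC division. The rat strain, the number of pups behind each sample and the fibrinogen dose were not given in the sources used here, and the labels do not say that replicates were separate cultures, so p-values reflect how far these samples scatter, and that scatter may be technical.

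A cell commits to copying its DNA late in the G1 phase of its cycle. Growth factors raise the D cyclins, which bind and activate the kinases CDK4 and CDK6. These kinases add phosphate to the retinoblastoma protein Rb, which then releases E2F transcription factors that turn on genes for DNA synthesis. Inhibitors of the INK4 family (Cdkn2b, Cdkn2c) bind CDK4 and CDK6 alone, while those of the Cip/Kip family (Cdkn1a, Cdkn1b, Cdkn1c) act mostly on cyclin-CDK2 complexes and also help cyclin D bind its kinase. In OPCs, a build-up of p27, the product of Cdkn1b, is known to accompany the end of division and the start of differentiation.

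Values are log2 levels per probe set, so 1 unit is a doubling, and a change is fibrinogen minus control with its standard error (SE). A gene passed when its adjusted p was under 0.05 in limma, with Benjamini-Hochberg adjustment over all genes. The median log2 level of the arrays ranged from 6.85 to 6.89. Odorant and pheromone receptor genes (956 olfactory or vomeronasal receptors), which these cells should not use, had a 95th percentile of 5.51, and all 9 genes lay above it. So did 7 of 7 measured OPC markers, 7 of 8 oligodendrocyte, 8 of 8 astrocyte, 8 of 8 neuronal, 4 of 9 microglial, 4 of 6 pericyte and fibroblast and 1 of 4 endothelial markers. The array fibrinogen 2 stood apart: the scatter of genes around the mean of their group had an SD of 0.146 on it and of 0.0862 to 0.114 on the others. On 7 of the 9 genes it was the lowest fibrinogen array, against 37.4% of all genes. The changes and counts below are also given without it, which by construction moves the changes of those 7 genes upward.

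Among the 9 genes, 1 rose and 0 fell, and 8 did not pass. The share that passed was 11.1%, beside 3.10% of all genes tested (1.81% higher and 1.29% lower). The median log2 change of the 9 genes was -0.08, and that of all genes was -0.0033. With no adjustment, 4 of the 9 had p under 0.05, of which 2 were higher and 2 lower, beside 15.6% of all genes (8.12% higher and 7.46% lower). The groups did not overlap for 3 of the 9, with 1 higher and 2 lower, beside 21.3% of all genes (10.7% higher and 10.6% lower). Without fibrinogen 2, 2 of the 9 genes rose and 0 fell. Each of the other fits without 1 array had 1 that rose and 0 that fell.

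**Figure D1:**
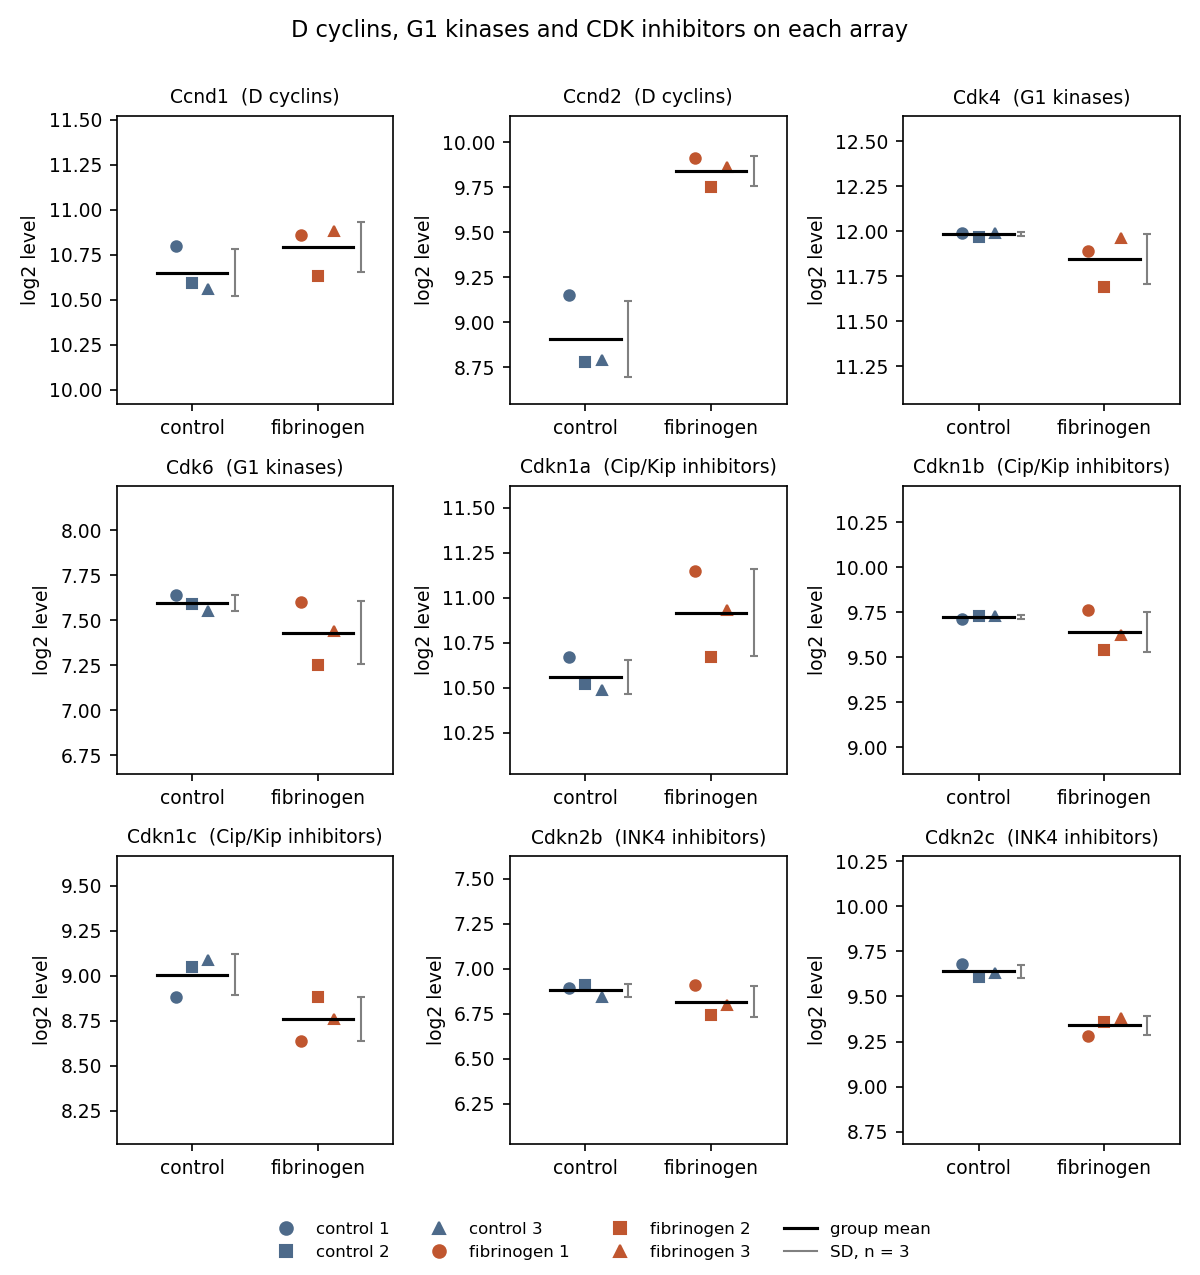
Log2 level (y axis, each panel spanning the same number of log2 units) of the 9 genes on the 3 control and 3 fibrinogen arrays, with the group mean as a black line and the SD (n = 3) as a grey bar. Ccnd2 lay between 9.75 and 9.91 on the fibrinogen arrays and between 8.78 and 9.15 on the controls, the widest separation among the 9 panels.

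Ccnd2, which encodes cyclin D2, was the gene that rose. Control arrays 1, 2 and 3 had log2 levels of 9.15, 8.78 and 8.79, and fibrinogen arrays 1, 2 and 3 had 9.91, 9.75 and 9.86, an order of arrays kept in what follows. Every fibrinogen array lay above every control array, and the spread was wider among the controls, where control 1 was high. The mean went from 8.91 ± 0.21 to 9.84 ± 0.08 (SD, n = 3 each), a change of 0.93 ± 0.11 (SE) with an adjusted p of 0.00347 in limma. On a linear scale this was 1.91-fold, with a 95% interval of 1.61 to 2.27. By unadjusted p the gene ranked 61 among the 13949. It passed in each fit that left out 1 array, with changes of 0.87 to 1.06 (rounded to 2 decimals), and its change without fibrinogen 2 was 0.98 (adjusted p = 0.0120, limma).

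Ccnd1 encodes cyclin D1, the family member most closely tied to growth factor signaling. Its log2 levels were 10.80, 10.59 and 10.56 in controls, against 10.86, 10.63 and 10.88 with fibrinogen. The groups overlapped, since fibrinogen 2 lay below control 1. The change of 0.14 ± 0.10 (SE) did not pass (adjusted p = 0.565, limma), and its 95% interval ran from -0.08 to 0.36, which leaves room for a rise of up to 1.29-fold. Without fibrinogen 2 the change was 0.22 (adjusted p = 0.251, limma).

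The D cyclin genes were set against each other on each array, as a comparison chosen after their values were seen. The log2 level of Ccnd2 minus that of Ccnd1 was -1.65, -1.81 and -1.77 in controls, against -0.95, -0.88 and -1.02 with fibrinogen. The groups were far apart relative to their spread (SD 0.08 in controls and 0.07 with fibrinogen), and the change of Ccnd2 exceeded that of Ccnd1 by 0.79 (0.76 without fibrinogen 2). An exact two-sided permutation test over arrays gave p = 0.1, the smallest that 3 against 3 arrays can give, and 0.2 after adjustment over the 6 pairs compared within families. The level of 1 probe set says nothing about the amount of its RNA relative to another, so only the shift of this difference is of use.

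**Figure D2:**
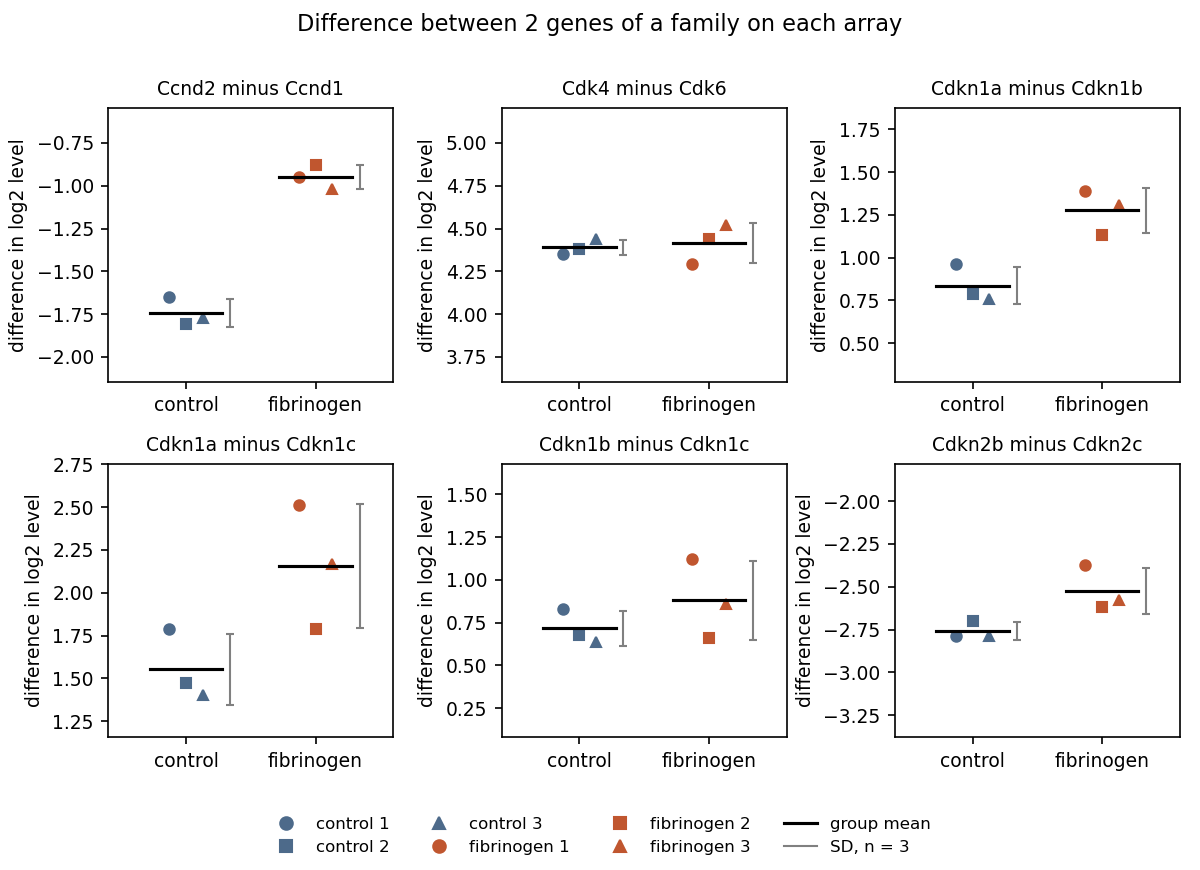
Difference in log2 level between 2 genes of a family (y axis) on each of the 3 control and 3 fibrinogen arrays, with the group mean (line) and SD (bar, n = 3). Ccnd2 minus Ccnd1 shifted by 0.79 with no overlap between groups, while Cdk4 minus Cdk6 differed by 0.03.

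The kinase genes were slightly lower with fibrinogen, and neither passed. Cdk4, one of the cyclin D partner kinases, had log2 levels of 11.99, 11.97 and 11.99 in controls, against 11.89, 11.69 and 11.96 with fibrinogen. All fibrinogen arrays lay below the controls, fibrinogen 3 by the least and fibrinogen 2 by the most. The change was -0.14 ± 0.08 (SE), with a 95% interval of -0.33 to 0.05 and an adjusted p of 0.495 in limma, and it was -0.06 without fibrinogen 2. Cdk6, the other partner kinase, had log2 levels of 7.64, 7.59 and 7.55 in controls and 7.60, 7.25 and 7.44 with fibrinogen. Its groups overlapped through fibrinogen 1. The change of -0.16 ± 0.09 (SE) had a 95% interval of -0.38 to 0.05 and an adjusted p of 0.467 (limma), and was -0.07 without fibrinogen 2. The kinase genes had changes close in size, which differed by 0.03, and by 0.02 without fibrinogen 2. The exact permutation test gave p = 0.9 (adjusted 0.9). Its smallest possible p is 0.1, so it could not have told these changes apart at 0.05.

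Cdk4 is a known target of the growth-promoting factor Myc, whose E-box motif is CACGTG, and its promoter is shown for that reason. RefSeq's promoter table (build GRCr8) held 6 of the 10 genes: Ccnd3, Cdk4, Cdkn1a, Cdkn1b, Cdkn2b and Cdkn2c. The 250 bases before the annotated start of Cdk4, at chr7:64771203-64771452 on the plus strand, lie outside every gene of that annotation and read, 5′ to 3′ with each E-box in capitals:
Cdk4: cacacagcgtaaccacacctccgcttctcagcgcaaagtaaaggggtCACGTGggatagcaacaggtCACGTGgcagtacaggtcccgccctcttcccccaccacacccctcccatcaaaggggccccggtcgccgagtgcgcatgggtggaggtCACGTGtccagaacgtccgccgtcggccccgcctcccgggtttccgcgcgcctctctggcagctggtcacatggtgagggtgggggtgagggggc
The motif reads the same on both strands and occurred 3 times, 203, 183 and 95 bases before the start. It was present in 6.42% of the 33469 promoter windows of 300 bases in the table, and 3 or more times in 0.0568% of them. None of the other 5 windows of these genes held it. A match is a description of the letters only. Myc itself, named here for this motif and not by the rule for the lists, had a log2 level of 9.90 ± 0.03 in controls and 10.08 ± 0.04 with fibrinogen (SD, n = 3 each), and its change of 0.19 ± 0.07 (SE) missed the threshold (adjusted p = 0.206, limma; 0.16 and 0.213 without fibrinogen 2).

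**Figure D3:**
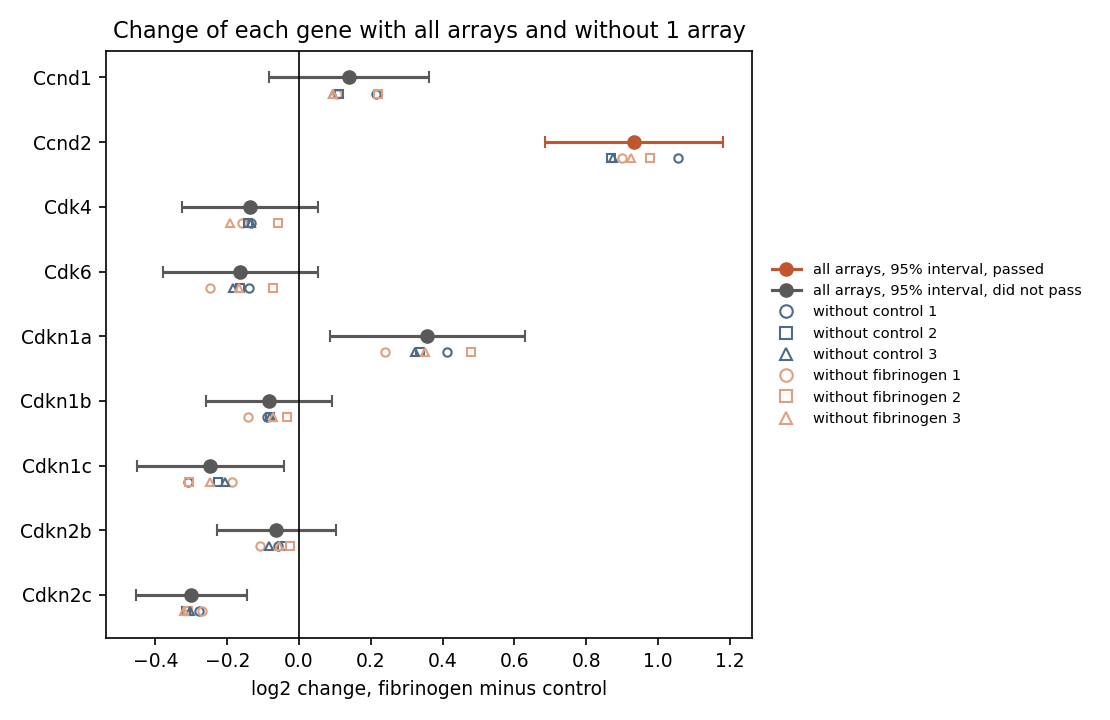
Log2 change, fibrinogen minus control (x axis), of each of the 9 genes with all 6 arrays (filled point, 95% interval from limma) and without 1 array (open symbols below it). Ccnd2 was at 0.93 with all arrays and stayed between 0.87 and 1.06 without 1 array, while Cdkn1a ranged from 0.24 without fibrinogen 1 to 0.48 without fibrinogen 2.

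Of the Cip/Kip inhibitors, 0 of 3 passed with all arrays and no array weights, and they did not share a direction. Cdkn1a encodes p21, an inhibitor induced by p53 and by TGF-beta family signals. Controls had log2 levels of 10.67, 10.52 and 10.49, and the fibrinogen arrays 11.15, 10.67 and 10.93. Fibrinogen 2 had the same value as control 1, and the other fibrinogen arrays were above all controls. The mean was 10.56 ± 0.10 in controls and 10.92 ± 0.24 with fibrinogen (SD, n = 3 each). The change of 0.36 ± 0.12 (SE, 95% interval 0.09 to 0.63) did not pass (adjusted p = 0.182, limma). Without fibrinogen 2 it was 0.48 with an adjusted p of 0.0477 in limma, and without fibrinogen 1 it was 0.24 (adjusted p = 0.332). With all arrays and array weights it was 0.43 (adjusted p = 0.0394, limma), so the call depended on the arrays kept and on the fit.

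Cdkn1b, which encodes p27, was nearly level. The log2 levels were 9.71, 9.73 and 9.73 in controls and 9.76, 9.54 and 9.62 with fibrinogen, so that fibrinogen 1 was the highest array of all and the groups overlapped. The change was -0.08 ± 0.08 (SE), with a 95% interval of -0.26 to 0.09 and an adjusted p of 0.685 in limma, and -0.03 without fibrinogen 2. On a linear scale the interval ran from 0.836 to 1.07 of the control level.

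Cdkn1c encodes p57, which is imprinted and is known to promote cell cycle exit in many lineages. Controls had log2 levels of 8.88, 9.05 and 9.09, and the fibrinogen arrays 8.64, 8.88 and 8.76. The groups met at 8.88, the value of both control 1 and fibrinogen 2. The change of -0.25 ± 0.09 (SE, 95% interval -0.45 to -0.04) did not pass (adjusted p = 0.222, limma), nor did that of -0.31 without fibrinogen 2 (adjusted p = 0.118).

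Within the Cip/Kip family, Cdkn1a minus Cdkn1b was 0.96, 0.79 and 0.76 in controls, against 1.39, 1.13 and 1.31 with fibrinogen, with no overlap. Their changes differed by 0.44 (exact permutation p = 0.1, adjusted 0.2), and by 0.51 without fibrinogen 2. Cdkn1a minus Cdkn1c differed between groups by 0.60 (exact permutation p = 0.2, adjusted 0.3), with fibrinogen 2 level with control 1 at 1.79. Cdkn1b minus Cdkn1c differed by 0.16 (exact permutation p = 0.3, adjusted 0.36). Without fibrinogen 2 these differences were 0.79 and 0.27.

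Cdkn1a is a textbook target of p53, so the p53 motif was looked for in its promoter window. The stretch of that window before the annotated gene, 138 bases at chr20:7150682-7150819 on the plus strand, reads, 5′ to 3′ with the match to the p53 decamer, the repeated unit of its binding motif, in capitals:
Cdkn1a: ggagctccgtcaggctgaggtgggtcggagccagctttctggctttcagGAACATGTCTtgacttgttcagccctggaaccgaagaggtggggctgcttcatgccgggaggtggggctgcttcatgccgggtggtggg
An annotated long noncoding RNA gene (LOC120098812) overlaps part of this stretch, and its annotated end, at 7150769, lies past the marked decamer. The annotated Cdkn1a gene begins 112 bases before the start that the table used. The p53 decamer was searched for on both strands and matched 1 time in this window, 201 bases before the start, and in 7.98% of all windows. The window of Cdkn2c held 1 match as well, and the other 4 windows held 0.

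Of the INK4 inhibitors, 0 of 2 passed. Cdkn2c encodes p18, which blocks CDK4 and CDK6. Its log2 level was 9.68, 9.61 and 9.63 in controls and 9.28, 9.36 and 9.38 with fibrinogen. The groups did not overlap, and both were tight (SD 0.04 and 0.05, n = 3 each). The change of -0.30 ± 0.07 (SE) had an adjusted p of 0.0561 in limma, just past the threshold, and its 95% interval on a linear scale was 0.730 to 0.904 of the control level. It ranked 456 by unadjusted p, where 432 genes passed. The call depended on the fit: the adjusted p was 0.0458 after median centring, 0.0285 without dim genes, 0.0258 with a trend and robust variance and 0.0352 with array weights (limma). It was 0.121 with the replicate number as a block, 0.0550 with the mean of probe sets and 0.0604 to 0.197 without 1 array, so the gene passed in 4 of 12 alternatives. Without fibrinogen 2 the change was -0.31 (adjusted p = 0.0604, limma).

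Cdkn2b encodes p15, a known target of TGF-beta in epithelial cells. Its log2 level was 6.89, 6.91 and 6.84 in controls and 6.91, 6.74 and 6.80 with fibrinogen, with overlapping groups. The change was -0.06 ± 0.07 (SE), with a 95% interval of -0.23 to 0.10 and an adjusted p of 0.757 in limma, and -0.02 without fibrinogen 2 (-0.0250 before rounding). Cdkn2b minus Cdkn2c was -2.79, -2.70 and -2.79 in controls and -2.37, -2.62 and -2.58 with fibrinogen. Their changes differed by 0.24 with no overlap (exact permutation p = 0.1, adjusted 0.2), and by 0.29 without fibrinogen 2 (0.285 before rounding).

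The 3 genes whose log2 levels followed Ccnd2 most closely over the 6 arrays were Arap2, Cryab and Csdc2, with Pearson correlations of 0.997, 0.996 and 0.996. These arrays share the split into 2 groups, which sets most of each correlation. Cryab, a small heat shock protein gene, had log2 levels of 7.02, 6.84 and 6.80 in controls and 7.59, 7.50 and 7.51 with fibrinogen, with control 1 high among the controls as for Ccnd2. Csdc2, which encodes an RNA-binding protein, changed by 0.72 ± 0.10 (SE) and Arap2, which encodes a GTPase-activating protein, by 0.33 ± 0.07 (limma, adjusted p = 0.00719 and 0.0489). Without fibrinogen 2 the changes of Cryab, Csdc2 and Arap2 were 0.66, 0.76 and 0.35, and Arap2 no longer passed (adjusted p = 0.0554).

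The other genes of the G1 step were taken from lists drawn up from general knowledge. Of all genes, 1.81% passed as higher and 1.29% as lower. With no adjustment, 8.12% were higher and 7.46% lower (limma, p under 0.05). These are the shares to set beside the list counts below. Downstream of the D cyclins, 0 of 10 measured genes of the Rb and E2F group passed in limma, and with no adjustment 0 were higher and 2 lower (p under 0.05). Their median log2 change was -0.06. The largest differences were those of E2f7 and E2f8, repressor E2Fs that are themselves E2F targets, at -0.35 ± 0.13 and -0.31 ± 0.13 (SE; adjusted p = 0.225 and 0.273, limma). Without fibrinogen 2 they were -0.38 and -0.39 (adjusted p = 0.266 and 0.194).

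Of 12 genes of the later cyclin E, cyclin A and CDK2 step, 0 passed in limma, and with no adjustment 0 were higher and 6 lower (p under 0.05). 11 of the 12 had a negative change, where 51.5% of all genes did, and the median was -0.17. Cdk1, the mitotic kinase gene, had a log2 level of 10.16, 10.04 and 10.14 in controls and 9.82, 9.58 and 9.82 with fibrinogen, and Ccna2, which encodes cyclin A2, had a mean of 9.60 ± 0.04 and 9.28 ± 0.11 (SD, n = 3 each). Their changes were -0.37 ± 0.09 and -0.32 ± 0.08 (SE; adjusted p = 0.0605 and 0.0729, limma), and -0.29 and -0.27 without fibrinogen 2. Both genes passed without dim genes, where 2 genes of this list fell.

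Of 9 other CDK inhibitors and CDK-binding proteins, 0 passed in limma, and with no adjustment 2 were higher and 1 lower (p under 0.05), with a median of 0.06. Cdkn3, a phosphatase gene that acts on CDKs and peaks with division, had a change of -0.31 ± 0.07 (SE; adjusted p = 0.0648, limma), and Tsg101, an endosomal sorting gene also linked to p21, one of 0.19 ± 0.08 (adjusted p = 0.270). Without fibrinogen 2 these were -0.27 and 0.15.

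Of 11 measured genes in a list of ubiquitin ligases of G1 regulators and of proteins tied to these ligases, 0 rose and 1 fell. The median was -0.09. Fbxo5, also called Emi1, which restrains the ligase that destroys cyclins and is itself an E2F target, had log2 levels of 8.61, 8.20 and 8.33 in controls and 7.69, 7.64 and 7.85 with fibrinogen. The groups were well apart. It fell by 0.65 on the log2 scale (SE 0.11, adjusted p = 0.0189, limma), to 0.636 of the control level. The call was lost without control 1, control 3, fibrinogen 1 or fibrinogen 2 (adjusted p = 0.0504, 0.0714, 0.0703 and 0.0557), with a change of -0.54 to -0.74 over the fits without 1 array.

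Of 17 measured genes of p53 and its targets, 2 rose, 0 fell and 15 did not pass. With no adjustment 7 were higher and 1 lower (p under 0.05), with a median of 0.13. Fas, a death receptor gene, had log2 levels of 6.12, 6.11 and 5.83 in controls and 7.22, 7.13 and 6.80 with fibrinogen. It rose 2.04-fold (log2 change 1.03 ± 0.13, SE, adjusted p = 0.0040, limma) and passed without each array in turn, with a change of 0.99 without fibrinogen 2. Tp53inp1, a stress-induced gene, rose by 0.37 ± 0.08 (adjusted p = 0.0396, limma), a call that held without fibrinogen 2 (adjusted p = 0.0482) and was lost without control 1, 2 or 3 or fibrinogen 1 or 3 (0.145, 0.0976, 0.122, 0.105 and 0.113). Without fibrinogen 2 the list again had 2 that rose and 0 that fell.

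Of 16 mitogen-linked and growth arrest transcription factor genes, 1 rose and 0 fell, with a median of 0.10. After median centring 0 rose and 1 fell, and without fibrinogen 2 the counts were 0 and 0. Klf4, a factor known to induce Cdkn1a, rose by 0.41 ± 0.09 (SE) from 6.32 ± 0.15 to 6.73 ± 0.07 (SD, n = 3 each; adjusted p = 0.0496, limma). Its second probe set, at a mean log2 level of 4.96, below the receptor percentile, had a change of -0.0067, and the mean of both gave 0.20 (adjusted p = 0.564). The call was lost in every fit without 1 array (adjusted p = 0.0965 to 0.151), and after median centring (0.0656). The gene that fell after median centring was Foxm1, a factor that drives mitotic genes, named after its values were seen. Its change was -0.39 ± 0.09 (SE; adjusted p = 0.0557, limma) without centring and -0.41 (adjusted p = 0.0434) with it, and -0.40 (adjusted p = 0.0877) without fibrinogen 2.

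**Figure D4:**
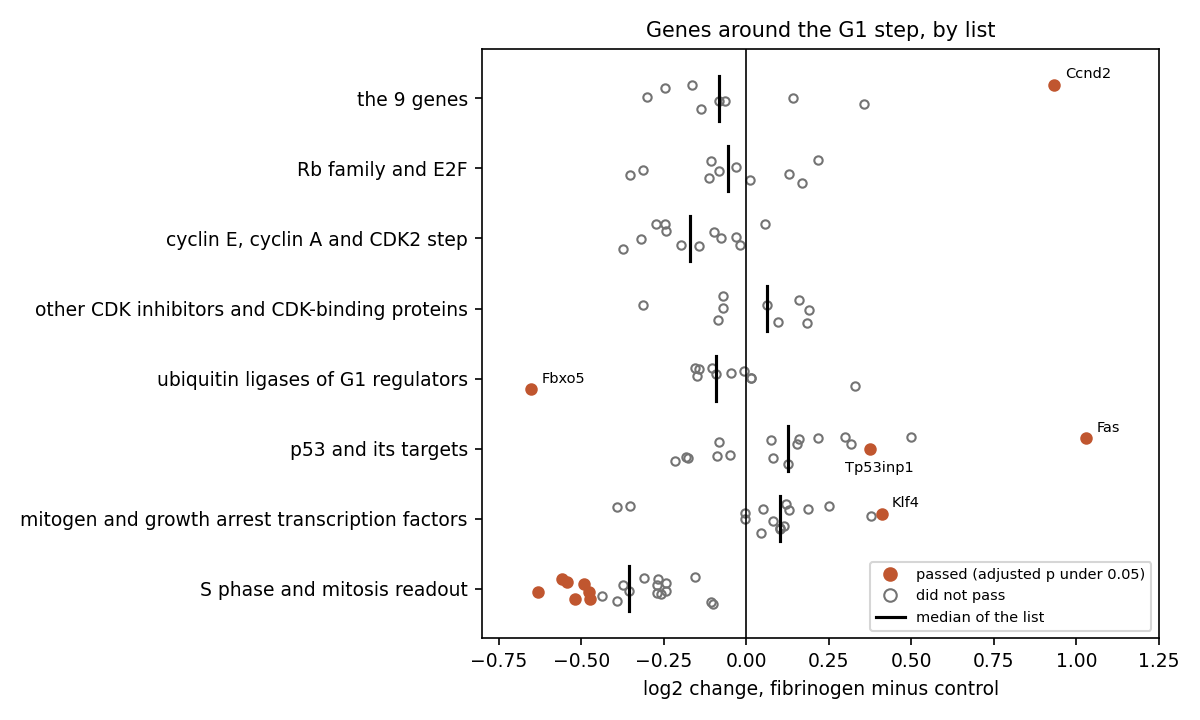
Log2 change, fibrinogen minus control (x axis), of every measured gene of the 9 genes and of 7 lists around the G1 step (rows). Filled points passed (limma, adjusted p under 0.05), open points did not, and the black line is the median of the row. Points are spread vertically to keep them apart, and the medians ran from -0.36 in the S phase and mitosis list to 0.13 in the p53 list.

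As a readout of division, 24 S phase and mitosis genes were listed and 21 measured: 0 rose, 7 fell and 14 did not pass, and all 21 changes were below 0 (median -0.36). Over all genes, 1.29% passed as lower and 51.5% had a change below 0. With no adjustment, 14 of the 21 were lower (p under 0.05, limma), beside 7.46% of all genes. The largest falls were those of Pola1, Kif20b, Bub1 and Cdc45, genes of DNA synthesis and chromosome segregation, to 0.646, 0.678, 0.686 and 0.697 of the control level, in the same arrays in which Ccnd2 rose 1.91-fold. Control 1 was the highest control on 19 of these 21 genes, against 33.9% of all genes, and it was also the highest control for Ccnd2. Without control 1, 2 of the 21 fell and the change of Ccnd2 was 1.06. Leaving out control 2 gave 3 that fell, control 3 gave 4, fibrinogen 1 gave 3, fibrinogen 2 gave 4 (Cdc45 no longer passed, adjusted p = 0.0586, limma) and fibrinogen 3 gave 6. This fall has the opposite sign to the change of Ccnd2 and the same sign as that of Cdkn2c, and no relation between them was tested.

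Markers of glial states moved in the same arrays. The counts below stand beside 1.81% of all genes that passed as higher and 1.29% as lower. Of 8 measured astrocyte markers 2 rose and 0 fell, with the mean log2 level of the list from 8.03 to 8.08 over the control arrays and from 8.38 to 8.48 over the fibrinogen arrays. Those that rose were Gfap and Slc1a2, by 1.24 ± 0.16 and 0.65 ± 0.07 (SE; adjusted p = 0.00511 and 0.00215, limma). Of the 8, 7 had a positive change and 6 were higher at p under 0.05 with no adjustment. Without fibrinogen 2, 3 rose, Fgfr3 in addition, and the changes of Gfap and Slc1a2 were 1.45 and 0.64. Of 7 OPC markers 0 rose and 4 fell (Pdgfra, Cspg4, Gpr17 and Neu4), with a list mean of 10.16 to 10.18 in controls and 9.75 to 9.92 with fibrinogen. Without fibrinogen 2, 2 fell (Gpr17 and Neu4). With all arrays and no adjustment, 5 of the 7 OPC markers were lower and 0 higher (p under 0.05, limma). Of 8 oligodendrocyte markers 1 rose (Ermn) and 2 fell (Cnp and Ugt8), with or without fibrinogen 2, and the list mean had ranges of 7.85 to 7.94 and 7.86 to 7.97. None of 9 microglial, 8 neuronal, 4 endothelial and 6 pericyte and fibroblast markers passed in limma, with or without fibrinogen 2, and with no adjustment only 1 did (p under 0.05), a neuronal one. Their list means over control and fibrinogen arrays were 5.30 to 5.38 and 5.29 to 5.36, 8.37 to 8.38 and 8.38 to 8.64, 4.89 to 4.93 and 4.95 to 4.97, and 5.78 to 5.84 and 5.65 to 5.85. The part of these markers in the rise of Ccnd2 was not tested. In RNA from whole cultures, fewer cells of a type and less RNA per cell cannot be told apart.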

How the data were processed

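The authors deposited 1 log2 level per probe set and array, rounded to 2 decimals. These were taken to be RMA values, since RMA is listed (with limma, and no version of either) per the submitters' processing notes. The log2 scale was inferred from the values, and scanner files were not used. RMA sets all arrays to a common distribution and can compress differences of dim genes. Of 26312 probe sets 1206 were blank, and of the 25106 others 14700 had 1 gene symbol in the platform annotation, 275 several and 10131 none. Where a gene had several (480 genes), that with the highest mean was used. Symbols were checked by Entrez ID against RefSeq (14672 matched, 0 changed). All 13949 genes were fitted with limma 3.58.1 in R 4.3.3 (lmFit, eBayes, two-sided, no covariates) and adjusted together by Benjamini-Hochberg, after a check on simulated data. The number of arrays limits the precision. The genes and lists were chosen with earlier results of these data known. Beyond the 9 genes, up to 4 passing genes per pathway list with the largest changes were named, or the 2 largest if none passed, as were the 3 genes most like Ccnd2. Myc, Foxm1 and the markers named fall outside this rule and were chosen with their values known. List genes with no single-symbol probe set were not analysed here. No 2 arrays had more than 3.63% of genes at identical values. Alternatives were median centring, leaving out dim genes (under the 30th percentile), the replicate number as a block, a trend and robust variance, array weights, the mean of probe sets and leaving out each array. The family pairs and their values, those of the genes like Ccnd2 without fibrinogen 2 and the alternatives for the other cyclins and CDKs were added after seeing the data.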

Additional observations from a re-analysis of the deposited data

How the results depend on the processing

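Ccnd2 rose in each of the 12 alternatives (log2 change 0.87 to 1.06, adjusted p 0.0011 to 0.0214, limma), and no change of the 9 genes turned its sign in any of them. Cdkn2c passed in 4 of 12 and Cdkn1a in 2 of 12 (with array weights, adjusted p = 0.0394, and without fibrinogen 2). The number of the 9 genes that passed was 2 after median centring, without dim genes and with a trend and robust variance, 3 with array weights, and 1 to 2 without 1 array. All genes that passed numbered 659 with array weights and 151 to 436 without 1 array. Genes of the cyclin E, cyclin A and CDK2 step that passed numbered 1 after median centring and 2 without dim genes, with the trend or with array weights. Those of the other CDK inhibitors numbered 1 without dim genes or with the trend. In every fit without 1 array, 0 genes of either list passed. Of the ubiquitin ligase list 2 passed without dim genes or with array weights, and 0 to 1 without 1 array. Of the p53 list 5 passed without dim genes, 4 with the trend and 1 to 2 without 1 array, and of the transcription factors 2 without dim genes or with the trend (1 higher and 1 lower each), 1 after median centring (lower), 0 with the mean of probe sets and 0 in every fit without 1 array. Of the S phase and mitosis genes, 2 to 6 passed without 1 array. The replicate numbers left no visible pairing in the values: deviations of same-numbered arrays correlated at 0.0278, 0.0217 and 0.0109. Whether same-numbered samples were prepared together is not in the labels, and these correlations cannot tell. With the number as a block, 315 genes passed, 1 of the 9 genes (Ccnd2), 1 of the p53 list, 0 of the transcription factors and 3 of the S phase and mitosis genes.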

Other observations

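The array also held 20 cyclin and 15 CDK genes besides the 9 genes of the report. This group was chosen after the values were seen and is partly shared with the lists above. None of the 35 passed in limma. With no adjustment 1 was higher and 8 lower (p under 0.05, beside 8.12% and 7.46% of all genes). 4 of them passed without dim genes and 4 with a trend and robust variance (Cdk1, Ccna2, Ccnb1 and Ccnf both times, all lower), 2 with array weights, 1 after median centring, 1 without fibrinogen 3 and 0 without fibrinogen 2. Their median log2 change was -0.07. The largest difference was that of Ccnf, a cyclin of the G2 phase that serves in a ubiquitin ligase, at -0.49 ± 0.12 (SE; adjusted p = 0.0693, limma; -0.48 without fibrinogen 2, -0.485 before rounding). Ccnb1, which encodes mitotic cyclin B1, had a change of -0.36 ± 0.09 (adjusted p = 0.0698; -0.30 without fibrinogen 2). The largest positive one was that of Cdk17, a CDK of little-known function, at 0.21 ± 0.10 (adjusted p = 0.379; 0.10 without fibrinogen 2, 0.0950 before rounding).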
